A study of Homo sapiens with 2 samples.

Results

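The syndecans and glypicans are the membrane-bound heparan sulphate proteoglycans, and the genes of all 4 syndecans and all 6 glypicans, 10 in total, are described here among the 18417 genes that the arrays measured with a sequence of 1 gene symbol. The members were taken as whole families, in a choice made with earlier results of these data known. Where a gene had several sequences, the one of highest mean level stood for it. This rule gave a value for 9 of the 10 genes. SDC4 had none, since the platform's annotation assigns its sequence to SDC4 and to the receptor kinase gene ROS1 together. HT1080 cells, which derive from a human fibrosarcoma, were grown for 24 h on wells coated either with BSA, the control protein, or with rLCC111, the recombinant coiled-coil domain of laminin-111, which lacks the globular LG domains of the laminin α chain. The truncated laminin chains of rLCC111 are of mouse sequence and were made in a human embryonic kidney cell line. Each coating had 1 array, so no difference below has a replicate array and no p-value is given. For MMP2 and WNT5A, both named below, the authors also reported changes in the same direction by quantitative RT-PCR. The values are log2 expression levels (RMA), and a difference is the level on rLCC111 minus the level on BSA.

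Syndecans span the membrane and carry heparan sulphate, and in some cases chondroitin sulphate, on their ectodomain, while a short conserved cytoplasmic tail binds PDZ proteins and kinases. Glypicans are held in the outer leaflet by a glycosylphosphatidylinositol (GPI) anchor, and their chains sit close to the membrane. Through their heparan sulphate both families bind growth factors, WNT and hedgehog ligands and matrix proteins. The LG domains of laminin α chains are among the known binding partners of these chains, and syndecan-4 is a known component of focal adhesions.

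Among the 9 measured genes, GPC6 and SDC2 stood apart, each close to 2-fold higher on rLCC111, and the other 7 had folds between 0.959 and 1.14. GPC6, a glypican that supports the growth of long bones, had log2 levels of 9.18 (BSA) and 10.23 (rLCC111), a difference of 1.05 and a fold of 2.06. SDC2, the syndecan typical of fibroblasts and other mesenchymal cells, had levels of 8.30 (BSA) and 9.26 (rLCC111), a difference of 0.96 and a fold of 1.94. GPC6 was thus the member past 2-fold, and SDC2 lay just short of it. Of all 18417 genes, 39 had a difference at least as high as that of GPC6 and 48 at least as high as that of SDC2, each count including the gene itself. Counted at 1.5-fold, 2 of the 9 members were higher and 0 lower, whereas the shares of all genes past 1.5-fold were 1.08% on the higher side and 0.543% on the lower side. These shares rest on 199 genes higher and 100 lower, and after median centring the balance turned to 134 higher and 179 lower. At 2-fold, 1 of 9 was higher and 0 lower, against 0.239% and 0.0869% of all genes, and after median centring no member passed 2-fold. The number of members is small, and these shares describe a single pair of arrays. In bulk RNA, more cells that make a transcript and more of it per cell cannot be told apart.

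**Figure D1:**
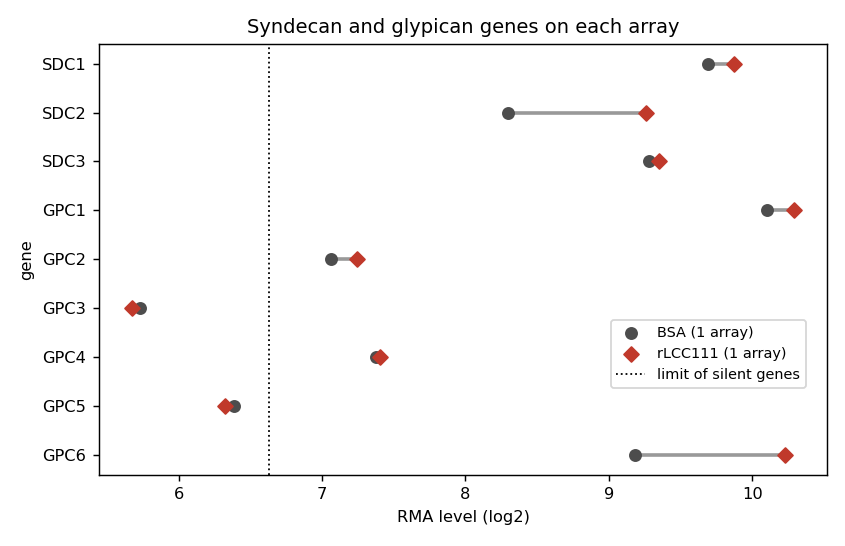
RMA level (log2, horizontal axis) of the 9 measured syndecan and glypican genes (vertical axis) on the BSA array (grey circles) and the rLCC111 array (red diamonds), 1 array per coating, with the limit of silent genes at 6.63 (dotted). The line between the 2 points is long for SDC2 and GPC6, and GPC3 and GPC5 lie left of the limit on both arrays.

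The remaining syndecans differed little between the coatings. SDC1, which is abundant on epithelial and plasma cells, had levels of 9.69 (BSA) and 9.88 (rLCC111) and a fold of 1.14. SDC3, known from neural tissue and muscle, had levels of 9.28 and 9.35 and a fold of 1.05. The 3 measured syndecans were therefore all higher on rLCC111 as deposited, with SDC2 far from the other two, but after median centring of the arrays SDC3 was at a difference of -0.01. The sequence annotated to both SDC4 and ROS1 stood at 11.14 (BSA) and 10.84 (rLCC111), with a fold of 0.816, which is the opposite direction to the 3 syndecans measured on their own sequences. Of the other sequences annotated to ROS1, that shared with EZR was at 11.21 and 11.16, that shared with CD74 at 7.01 and 6.89 and that shared with LRIG3 and SLC34A2 at 4.76 and 4.72. No sequence of the annotation carries ROS1 alone, so the part of each gene in the shared signal was not tested.

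Of the 6 glypicans, 4 were higher and 2 lower on rLCC111 as deposited. GPC1, which is widely made and raised in several carcinomas, had levels of 10.10 (BSA) and 10.29 (rLCC111) and a fold of 1.14. GPC2, a glypican of the developing nervous system, was at 7.06 and 7.25, a fold of 1.13, and its other sequence, at 5.74 and 6.07, had a fold of 1.26. GPC4 had levels of 7.37 and 7.41 and a fold of 1.02. As deposited, these 3 genes thus differed by less than 0.2 on the log2 scale. GPC1 was at 0.22 after a lowess trend was removed and 0.21 after quantile normalization, GPC2 was at 0.26 as the mean over its sequences, and GPC4 turned to a difference of -0.05 after median centring and -0.06 after quantile normalization.

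GPC3 and GPC5 gave signals in the range of genes that are not transcribed. To set this range, 374 olfactory, taste, vomeronasal and trace amine receptor genes were taken as silent in this line, and a limit was set at 6.63, below which the mean level of 95% of them lay. GPC3, whose loss causes an overgrowth syndrome, was at 5.73 on BSA and 5.68 on rLCC111, and GPC5 was at 6.39 and 6.33. Both were below the limit on both arrays, with folds of 0.963 and 0.959, so no direction can be read from them. Brightness also depends on the probes of a sequence, so a level under the limit does not show that a transcript was absent. With the 99th percentile of the receptor genes, 7.58, as the limit, GPC2 and GPC4 fell below it too, which left 5 members above it in place of 7.

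The differences of the receptor genes gave a measure of the spread between the arrays where little transcript is present. Their median was 0.00 and their SD 0.18. Of the 374, 10 passed 1.5-fold on the higher side and 0 on the lower side, beside 1.08% and 0.543% of all genes. At 2-fold, 2 of the 374 were higher and 0 lower, beside 0.239% and 0.0869% of all genes. Genes taken as silent thus also passed both thresholds on the higher side. Over the 12671 genes whose brighter array was above the limit, the SD of the differences was 0.22. The differences of GPC6 and SDC2 were 4.74 and 4.35 times this SD, while those of SDC1, GPC1 and GPC2, at 0.19, 0.19 and 0.18, were under 1 SD. Differences at least as high as that of SDC1 were found in 13.2% of these 12671 genes, as that of GPC1 in 12.7% and as that of GPC2 in 13.5%, against 0.284% for GPC6 and 0.355% for SDC2. The median over the 9 members was 0.18, beside 0.00 over all genes. After median centring it was 0.10, beside -0.08 over all genes, and after quantile normalization 0.10, beside -0.06. All 7 members above the limit had a difference above 0, which 46.7% of the genes above the limit had, but after median centring SDC3 and GPC4 did not, nor did GPC4 after quantile normalization. SDC4 is not among these 7, and the sequence it shares with ROS1, also above the limit, had a difference of -0.29.

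**Figure D2:**
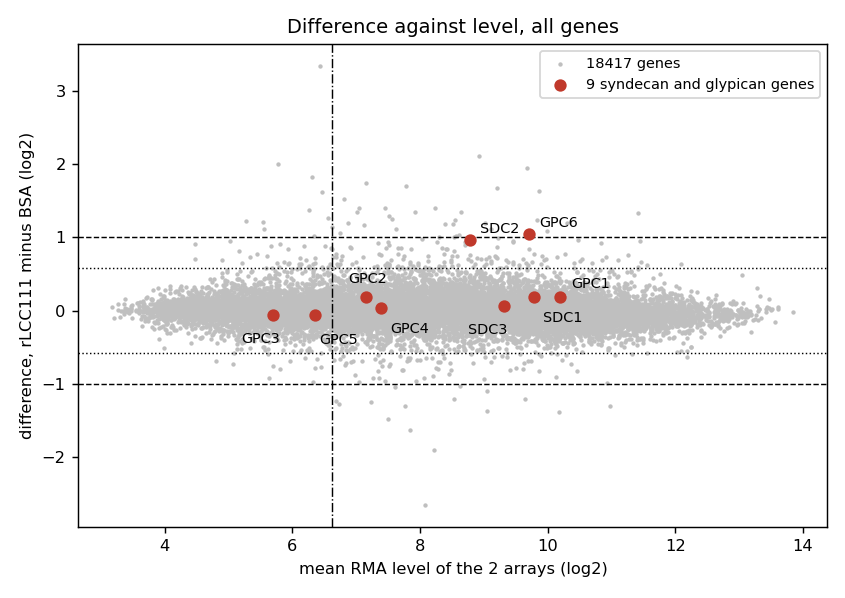
Difference in RMA level, rLCC111 minus BSA (log2, vertical axis), against the mean level of the 2 arrays (log2, horizontal axis) for 18417 genes (grey) and the 9 measured members (red). Dashed lines mark 2-fold, dotted lines 1.5-fold and the dash-dotted line the limit of silent genes at 6.63. GPC6 lies above the upper dashed line and SDC2 just under it, and the other 7 members lie within the grey band.

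Pairs of glypican genes lie side by side in the genome. On chromosome 13 in GRCh38.p14, GPC5 is the protein-coding gene next to GPC6. GPC6 was 2.06-fold higher at levels above the limit, and GPC5 was below the limit on both coatings. On chromosome X, GPC3 and GPC4 are neighbours, and the differences of both were small, at -0.05 for GPC3 and 0.03 for GPC4. SDC2 lies between PTDSS1, an enzyme of phosphatidylserine synthesis, with a fold of 0.891, and CPQ, a carboxypeptidase, with a fold of 1.25. Of the protein-coding neighbours with a value that are not members themselves, LAPTM5, a lysosomal membrane protein of blood cells beside SDC3, differed most, at 8.03 on BSA and 8.58 on rLCC111. By the RefSeq annotation, members overlap 20 other genes, of which the arrays measured 2, both within GPC1. These were MIR149, at 7.51 on both arrays, and GPC1-AS1, at 6.66 and 6.68, close to the limit of 6.63. The difference of GPC1 was itself small, at 0.19, so these values cannot show whether the overlapping genes shared it. None of the genes overlapping SDC2 or GPC6 had a value.

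The sequences just before the gene starts differed between GPC6 and the 7 other members that could be looked up, SDC2 not among them. Sequences of 250 bases upstream of the start were taken from RefSeq (GRCh38.p14) for 8 of the 10 genes, all but SDC2 and GPC3. They are shown for GPC6, for its neighbour GPC5 and for GPC1, a glypican with little difference between the coatings. Capitals mark matches, on either strand, to the GC box GGGCGG, the CCAAT box, the TATA box TATAAA and the AP-1 site TGANTCA. Matches of the same motif can overlap by a base, as do 3 copies of the GC box, read on the other strand, in GPC1.
GPC6, chr13:93226557-93226806, plus strand: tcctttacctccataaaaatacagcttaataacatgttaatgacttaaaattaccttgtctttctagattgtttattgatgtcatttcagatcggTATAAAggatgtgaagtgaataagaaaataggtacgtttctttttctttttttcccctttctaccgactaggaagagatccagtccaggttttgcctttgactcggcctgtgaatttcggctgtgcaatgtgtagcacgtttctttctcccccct
GPC5, chr13:91398371-91398620, plus strand: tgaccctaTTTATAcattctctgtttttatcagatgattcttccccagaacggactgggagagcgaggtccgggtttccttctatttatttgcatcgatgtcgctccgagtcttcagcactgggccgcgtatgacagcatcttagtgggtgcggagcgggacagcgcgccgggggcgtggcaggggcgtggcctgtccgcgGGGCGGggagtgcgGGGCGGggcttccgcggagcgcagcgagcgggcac
GPC1, chr2:240435413-240435662, plus strand: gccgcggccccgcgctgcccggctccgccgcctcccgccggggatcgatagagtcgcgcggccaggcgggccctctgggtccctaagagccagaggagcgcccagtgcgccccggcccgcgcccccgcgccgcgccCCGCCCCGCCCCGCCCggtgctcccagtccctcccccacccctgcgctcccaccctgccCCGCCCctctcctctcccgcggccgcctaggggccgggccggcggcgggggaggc

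The GPC6 window had a GC content of 37.6%, against 62.4% for GPC5, 84.0% for GPC1 and a median of 58.0% over all 35116 listed promoters. Of those promoters, 9.51% had a GC content as low as that of GPC6. GPC6 held no GC box, whereas the other 7 members, SDC1, SDC3, SDC4, GPC1, GPC2, GPC4 and GPC5, held at least 1 in every listed window, and 42.6% of all promoters did. The TATAAA in the GPC6 window began 155 bases before the start and that of GPC5, on the other strand, 242 bases before it, and 10.7% of all promoters held this motif. GPC2 was the member with a CCAAT box, which 32% of promoters held, and no member window held the AP-1 letters, which 6.57% of promoters held. A match is a stretch of letters and not a measured site, and these windows do not show which factor acts there.

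The genes that build, modify and release these proteoglycans were measured beside them. On 7 lists of other core proteins, chain synthesis, sulphation, breakdown, shedding, tail partners and anchors, 3 of 85 measured genes were at least 1.5-fold higher and 0 were lower by as much, or 3.53% against the 1.08% of all genes. These 3 were SPOCK1, SULF2 and MMP2. The lists were chosen with earlier results known, so this share is a description.

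Among 10 other proteins that can carry heparan sulphate, SPOCK1, the secreted proteoglycan testican-1, had levels of 10.96 (BSA) and 11.92 (rLCC111) and a fold of 1.94. SRGN, the proteoglycan of secretory granules, was the largest in the other direction, at 12.45 and 11.90, a fold of 0.684. The basement membrane proteoglycan genes HSPG2, which encodes perlecan, and AGRN, which encodes agrin, had folds of 1.26 and 1.15. The list had a median difference of 0.13, and 8 of 10 genes were above 0, or 7 after median centring. After median centring SRGN passed 1.5-fold on the lower side.

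No gene of chain synthesis was 1.5-fold different. Over all genes 1.08% were higher and 0.543% lower by as much, so none in lists of this size is near those shares. Among 14 genes of the linker and of chain polymerisation, XYLT1, which adds the xylose that starts a chain, had the largest difference, with levels of 7.69 (BSA) and 7.22 (rLCC111) and a fold of 0.723. PXYLP1, the phosphatase that acts on that xylose, had a fold of 0.773 and B3GAT3, which completes the linker, 1.15. The median of this list was 0.04 as deposited and turned to -0.04 after median centring and -0.01 after quantile normalization. Among 19 measured genes of sulphation and epimerisation, PAPSS2, which makes the sulphate donor, had a fold of 0.842, the 3-O-sulphotransferase gene HS3ST3A1 1.16 and the sulphate donor transporter gene SLC35B3 1.13. The median was 0.10.

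Among the genes that edit or cut finished chains, SULF2, an extracellular sulphatase that removes 6-O-sulphates from heparan sulphate, had levels of 9.28 (BSA) and 10.13 (rLCC111), a difference of 0.85 and a fold of 1.80. SULF1, the related sulphatase, was at 5.23 and 5.41, below the limit on both arrays. HPSE, the heparanase that cuts the chains, was at 8.28 and 7.89, a fold of 0.760. In lysosomal breakdown IDUA and HGSNAT had folds of 1.34 and 1.32. Over the 11 measured genes of this list 9 were above 0, or 8 after median centring or quantile normalization, and the median was 0.17.

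Of the proteases and lipases that release core proteins, MMP2, a gelatinase that can cut syndecan ectodomains, had levels of 10.75 (BSA) and 12.08 (rLCC111) and a fold of 2.52. TIMP3, an inhibitor of the main syndecan sheddases, had a fold of 1.46, and the proprotein convertase genes PCSK6 and FURIN, the latter able to process glypicans, had folds of 1.24 and 1.22. ADAM10 and ADAM17, which shed syndecans, were at 11.83 on both arrays and at 10.46 and 10.60. NOTUM, which acts on palmitoylated WNT proteins and was known earlier for releasing glypicans, was at 6.90 and 6.91. All 16 genes of this list were above 0 as deposited, with a median of 0.17, but 11 were after median centring, 13 after quantile normalization and 15 after a lowess trend was removed. Among the partners of syndecan tails, PRKCA, the kinase that syndecan-4 activates, had a fold of 1.44, the exchange factor gene TIAM1 0.784 and SDCBP, which encodes syntenin-1, 0.821. The median of the 7 measured of 12 listed partners was 0.01 as deposited and -0.07 after median centring. For the GPI anchor, PGAP1 had a fold of 1.27, PGAP2 1.11 and PIGS 1.10 (median of 8 genes 0.08).

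**Figure D3:**
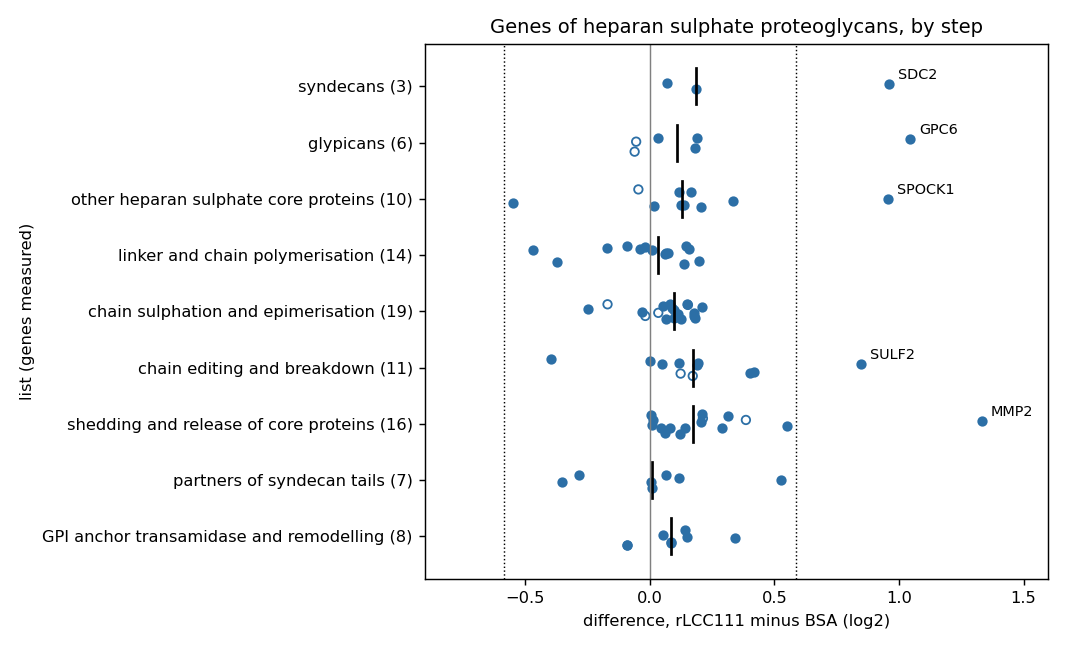
Difference in RMA level, rLCC111 minus BSA (log2, horizontal axis), for the measured genes of each step of heparan sulphate proteoglycan biology (vertical axis, number measured in brackets). Filled points have their brighter array above the limit of silent genes and open points do not, black bars are medians and dotted lines mark 1.5-fold. SDC2, GPC6, SPOCK1, SULF2 and MMP2 lie right of the upper 1.5-fold line, and no gene lies left of the lower one.

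Ligands that bind heparan sulphate, and their receptors, included differences in both directions. Of 27 such genes, 1 passed 1.5-fold on the higher side and 3 on the lower side, beside 1.08% and 0.543% of all genes. This list too was chosen with earlier results known, so these counts are a description. WNT5A, a non-canonical WNT ligand, had levels of 7.92 and 9.16, a fold of 2.37, whereas FGF1 and FGF5, both growth factors, and the chemokine gene CXCL8 had folds of 0.487, 0.568 and 0.386. FGFR3, an FGF receptor, had a difference of 0.58, just short of 1.5-fold, HBEGF a fold of 0.774 and PDGFA 1.18. The list had a median of 0.00. Among 14 measured genes of hedgehog signalling, which glypicans modulate, none was 1.5-fold different. For so short a list this is near the shares of all genes. CDON, GLI2 and GLI3 had folds of 1.29, 1.29 and 1.26, with a list median of 0.08. PTCH1, a hedgehog receptor and target, was at 8.18 on both arrays, and GLI1, another target, was at 6.19 and 6.05, below the limit.

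The genes nearest to the 2 members that stood apart were found by the distance between pairs of levels over the 2 arrays, which also depends on how bright each gene's probes are. Nearest to GPC6 was SULF2, at a distance of 0.14 log2, followed by TGFBI, a TGF-beta-induced matrix protein, at 0.22, and the fibrillin gene FBN1, at 0.22. TGFBI had a fold of 1.71 and FBN1 2.35. Nearest to SDC2 were the small nucleolar RNA gene SNORD53, at 0.09, the NADPH oxidase gene NOX4, at 0.12, and REPS2, at 0.14, with folds of 1.92, 1.87 and 1.69. With 2 arrays, such a distance says only that the level pairs were close.

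The arrays were checked against markers of the labelled line and of other cells. Of 10 mesenchymal markers, 8 were above the limit, among them VIM at 13.05 and 12.98, FN1 at 12.80 and 13.29 and SPARC at 13.22 and 13.42, while THY1 and S100A4 were below it. PDGFRB, the marker with the largest difference, had a fold of 2.54, COL1A1 1.28 and COL6A3 1.23. The epithelial genes EPCAM and CDH1, the blood gene PTPRC and the endothelial genes PECAM1 and KDR were below the limit on both arrays. As a whole, the summed level of each list, as log2 of the summed linear levels, went from 14.87 on BSA to 15.10 on rLCC111 for the mesenchymal list, from 9.48 to 9.56 for 8 epithelial genes, from 11.45 to 11.33 for 10 endothelial genes, from 11.72 to 11.63 for 8 blood genes and from 11.03 to 10.73 for 9 genes of HEK-293 or neural cells. Above the limit in these other lists were KRT19, MUC1 and CLDN7, with folds of 1.12, 1.28 and 0.820, TIE1, EGFL7, CLDN5 and ESAM, with 0.895, 0.991, 0.867 and 0.712, CD68 and CD79A, with 0.927 and 0.981, CD14, at 6.68 and 6.69, and NEFL, PAX2 and GATA4, with 0.748, 0.924 and 0.937. The summed level of the mesenchymal list was higher on rLCC111, as were GPC6 and SDC2. By gene, 7 of its 10 markers were above 0 and 3 below as deposited, and 6 were above 0 after median centring or quantile normalization. The part of the mesenchymal list in the differences of GPC6 and SDC2 was not tested.

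**Figure D4:**
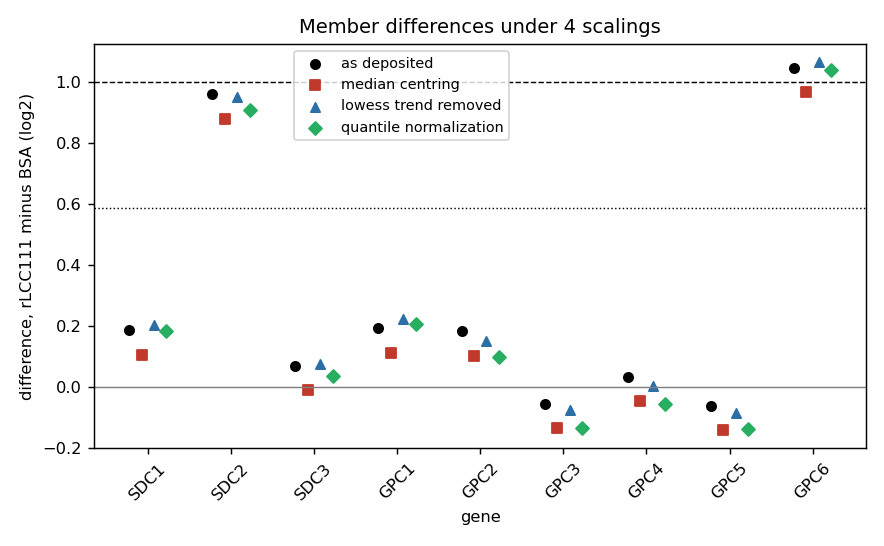
Difference in RMA level, rLCC111 minus BSA (log2, vertical axis), of the 9 measured members (horizontal axis) as deposited and after median centring, removal of a lowess trend and quantile normalization (symbols). The dashed line marks 2-fold and the dotted line 1.5-fold. SDC2 stays between 0.88 and 0.96 and GPC6 between 0.97 and 1.06, so GPC6 falls under 2-fold with median centring, and SDC3 and GPC4 lie on both sides of 0.

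GPC6 and SDC2 stayed apart from the rest of the family after a lowess trend was removed and after quantile normalization. Median centring shifts every difference by the same amount, so the gaps between members could not change under it. The difference of GPC6 was 1.05 as deposited, 1.06 after a lowess trend was removed, 1.04 after quantile normalization and 0.97 after median centring, the last of which is short of 2-fold. That of SDC2 was 0.96, 0.95, 0.91 and 0.88 in the same order. Both genes were at least 1.5-fold higher under each of these 4 settings.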

How the data were processed

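The values are 1 GeneChip Human Gene 1.0 ST array per coating. The authors used Affymetrix Expression Console with its RMA algorithm, and the deposited values are log2 expression levels of 33297 sequences after background correction, normalization and summary over probes. The software version, RMA settings and array genome build are not given in the sources used here. In the methods, limma with a false discovery rate is named, which needs replicates and was not run. Precision is limited by the number of arrays.

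Levels were used as deposited (median 7.04 on BSA, 7.12 on rLCC111). Of the sequences, 19460 carry 1 symbol in the platform's annotation, 1754 several and 12083 none. Symbols were updated by gene identifier to the RefSeq table of GRCh38.p14. Members and lists were chosen with earlier results of these data known. Named genes are all members, in each of 14 lists the genes past 1.5-fold and the 3 next largest above the limit of silent genes, neighbours, and the 3 nearest genes to each member past 1.5-fold. EGFL7, VIM, SPARC, THY1, S100A4, EPCAM, CDH1, PTPRC, PECAM1, KDR, SULF1, ADAM10, ADAM17, NOTUM, PTCH1 and GLI1 were added with their values known. The other settings were median centring, lowess (span 0.2, 3 robustness iterations), quantile normalization, the mean over sequences and filters on dim genes. Counting was tested on simulated data with planted differences larger than those of GPC6 and SDC2, so that test does not bear on differences near 2-fold. Python 3.11.15, numpy 2.4.6, pandas 2.3.3, statsmodels 0.14.6 and matplotlib 3.10.9 were used.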

Additional observations from a re-analysis of the deposited data

How the results depend on the processing

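The counts of members past 1.5-fold, 2 higher and 0 lower, were the same under every setting run, as deposited, after each scaling, with the mean over sequences, with either filter on dim genes and, chosen after seeing the data, with the sequence shared by SDC4 and ROS1 counted as SDC4. The filters and the mean over sequences could not alter the values of GPC6 and SDC2, which lie above the limit and have 1 sequence each. Counting the shared sequence as SDC4 leaves those values as they are too. The same count under these settings is therefore no check on the 2 genes. The count past 2-fold was 1 except after median centring, where it was 0, since that setting lowers every difference by the 0.08 between the array medians. Counting the shared sequence as SDC4 moved the median of the members from 0.18 to 0.13. Median centring brought 1 gene of the other heparan sulphate core proteins, SRGN, past 1.5-fold on the lower side, where there was 0 as deposited. The median of the endothelial markers, 0.05 as deposited, was -0.18 for genes with the brighter array above the limit and -0.16 with both arrays above it, the filters having left fewer genes. Over all genes, the number at least 1.5-fold lower went from 100 to 179 after median centring and 153 after quantile normalization, while the number at least 1.5-fold higher went from 199 to 134 and 158, the number at least 2-fold lower from 16 to 25 after median centring, and the number at least 2-fold higher from 44 to 26 with both arrays above the limit. The receptor genes' SD served as the size below which a value was taken as not having moved. With 1 array per coating, leaving out a replicate was not possible. No paired analysis was possible because each coating has 1 array and the labels give no replicate numbers.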

Other observations

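Many genes had exactly the same deposited level on both arrays. This was so for 1325 of the 18417 genes, or 7.19%, for 77 of the 374 receptor genes, or 20.6%, and for 379 of the 12671 genes above the limit of silent genes, or 2.99%. No syndecan or glypican gene was among them, while MIR149, inside GPC1, was.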
